A study of Homo sapiens with 12 samples.

Results

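The genes described here are 36 genes of glycolysis and of the response to low oxygen, taken by symbol from a list of 37 and measured in 2 human acute myeloid leukaemia cell lines. Members were chosen by their symbols, a rule that uses no measured value, although the list was put together with earlier results of these data known. The deposited table holds 13881 genes, and 13353 of them reached 1 FPKM (fragments per kilobase of transcript, scaled to the sequencing depth of the library) in at least 3 libraries. All 36 members passed that filter, and EGLN3, the remaining symbol, was not analysed here.

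KG-1 and MOLM-14 are established myeloid leukaemia lines, kept in RPMI1640 with serum. Each line was exposed for 96 h either to ASLAN003, a small-molecule inhibitor of dihydroorotate dehydrogenase (the mitochondrial enzyme that makes a precursor of uridine), or to its vehicle DMSO. The 4 groups were KG-1 with ASLAN003, KG-1 with DMSO, MOLM-14 with ASLAN003 and MOLM-14 with DMSO, with 3 libraries each. The sources used here give no dose, each line is 1 model of the disease, and nothing states that the libraries of a group came from separate cultures, so each p-value reflects the spread among these libraries alone. In bulk RNA, fewer cells of a type and less RNA per cell cannot be told apart.

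Glycolysis splits glucose into pyruvate, and lactate dehydrogenase turns pyruvate into lactate so that the pathway can go on without mitochondrial respiration. When oxygen is low, the prolyl hydroxylases of the EGLN family no longer mark HIF1A for destruction. HIF1A then pairs with ARNT and binds short DNA sites near glucose carriers, glycolytic enzymes, PDK1, BNIP3 and VEGFA, raising their transcription. In leukaemia cells the same enzymes are also driven by MYC and by growth factor signalling.

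Of the 36 members, 31 had promoter entries in RefSeq (GRCh38.p14), and their letters are shown for genes whose changes are the subject of the results. BNIP3, LDHA, GAPDH, PFKFB4 and PDK1 were lower with ASLAN003 in both lines, HK3 was higher in both, and SLC2A1 moved in opposite directions. HK1, also higher in both lines, is not printed, and 1 of its 7 starts held 1 core match. Each run is the 250 bases before the transcription start, 5′ to 3′ on the gene's own strand, and where a gene has several starts the one with the most matches is shown. Capitals mark the core of the hypoxia response element, searched as ACGTG or GCGTG on either strand, which reads CACGT or CACGC when the site lies on the opposite strand. ACGTG and CACGT overlap in CACGTG, the E-box that MYC binds, and such a site was counted at both positions. The 7 runs lie at chr10:131981924-131982173 on the minus strand (BNIP3), chr11:18394313-18394562 on the plus strand (LDHA), chr12:6535014-6535263 on the plus strand (GAPDH), chr3:48556804-48557053 on the minus strand (PFKFB4), chr2:172555840-172556089 on the plus strand (PDK1), chr5:176899347-176899596 on the minus strand (HK3) and chr1:42958869-42959118 on the minus strand (SLC2A1).
BNIP3: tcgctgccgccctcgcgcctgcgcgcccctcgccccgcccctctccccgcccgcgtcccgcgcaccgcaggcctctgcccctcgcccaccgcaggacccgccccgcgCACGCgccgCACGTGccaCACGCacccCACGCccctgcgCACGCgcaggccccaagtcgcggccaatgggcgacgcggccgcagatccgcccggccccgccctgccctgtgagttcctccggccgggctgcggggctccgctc
LDHA: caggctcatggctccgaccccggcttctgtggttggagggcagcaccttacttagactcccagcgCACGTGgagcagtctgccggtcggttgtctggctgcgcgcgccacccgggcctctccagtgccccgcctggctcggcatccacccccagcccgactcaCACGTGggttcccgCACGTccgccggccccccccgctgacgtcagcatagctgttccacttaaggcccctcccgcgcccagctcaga
GAPDH: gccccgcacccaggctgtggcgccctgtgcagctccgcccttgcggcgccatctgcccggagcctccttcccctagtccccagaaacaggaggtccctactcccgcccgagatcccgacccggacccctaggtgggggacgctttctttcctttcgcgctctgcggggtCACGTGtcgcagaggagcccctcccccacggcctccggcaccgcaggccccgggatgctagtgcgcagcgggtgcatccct
PFKFB4: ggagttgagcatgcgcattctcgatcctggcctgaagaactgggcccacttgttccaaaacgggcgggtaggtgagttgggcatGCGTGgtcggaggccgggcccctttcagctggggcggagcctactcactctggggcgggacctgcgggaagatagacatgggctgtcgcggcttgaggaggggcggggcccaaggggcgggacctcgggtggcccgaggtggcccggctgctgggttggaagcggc
PDK1: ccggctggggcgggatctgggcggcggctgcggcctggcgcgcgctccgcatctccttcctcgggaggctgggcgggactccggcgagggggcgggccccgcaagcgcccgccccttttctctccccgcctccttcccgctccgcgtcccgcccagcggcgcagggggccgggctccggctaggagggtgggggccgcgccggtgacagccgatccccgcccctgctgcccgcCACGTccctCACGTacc
HK3: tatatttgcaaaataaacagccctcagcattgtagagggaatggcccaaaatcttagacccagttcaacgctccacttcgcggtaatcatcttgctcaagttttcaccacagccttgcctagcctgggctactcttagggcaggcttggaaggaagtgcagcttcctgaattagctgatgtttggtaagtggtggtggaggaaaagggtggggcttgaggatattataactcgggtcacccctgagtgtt
SLC2A1: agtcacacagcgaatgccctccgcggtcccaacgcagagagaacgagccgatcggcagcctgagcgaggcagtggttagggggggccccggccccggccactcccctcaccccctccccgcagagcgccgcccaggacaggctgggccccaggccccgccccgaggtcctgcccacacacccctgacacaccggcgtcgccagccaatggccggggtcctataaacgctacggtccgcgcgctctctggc

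The BNIP3 run held 6 core matches, the LDHA run 5, the GAPDH run 2, the PDK1 run 2 and the PFKFB4 run 1, and the HK3 and SLC2A1 runs held 0. The LDHA start shown is 1 of 2, and the other held 1 match, while the other PDK1 start held 0. Over all starts, 33 of the members' 60 promoters (55.0%) held a core, against 43.2% of 35116 RefSeq promoters. Among genes with a single start, which removes the advantage of genes with many, 13 of 19 members (68.4%) held one, against 42.2% of 22114 genes. A match is a description of letters in this window and not a binding site, and its absence says nothing about HIF1A at the gene.

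The libraries had similar estimated depth, 1.80e+07 to 1.88e+07 fragments each from the low-FPKM steps, assuming fragments of 180 bases. Summed FPKM, which does not measure depth, was lower with ASLAN003 in both lines. It was 674153 to 691773 in KG-1 with ASLAN003, against 754157 to 778674 with DMSO. In MOLM-14 it was 738331 to 809009 with ASLAN003, against 831135 to 845458 with DMSO. Ribosomal protein genes held 15.2 to 16.3% of listed FPKM in KG-1 with ASLAN003, against 25.6 to 26.7% with DMSO, and 22.6 to 27.8% in MOLM-14 with ASLAN003, against 33.6 to 34.4% with DMSO. The myeloid genes PTPRC, SPI1, CD33, CEBPA and MPO were present in every library, but ANPEP, another myeloid gene, reached at most 0.88 FPKM in MOLM-14. Of the markers that define MOLM-14, FLT3, HOXA9, MEIS1 and CD4 were highest there. FCGR1A went against its label, at 93.6 to 119.7 FPKM in KG-1 and 38.4 to 44.3 FPKM in MOLM-14 with ASLAN003, and 39.6 to 51.3 FPKM in KG-1 and 27.6 to 33.7 FPKM in MOLM-14 with DMSO. CD34, a marker that defines KG-1, reached at most 0.17 FPKM in any library. Of 14 markers of other cell types, 4 were analysed (COL1A1, EPCAM, KRT18 and KRT8), and their summed level was 29.1 to 42.4 FPKM in KG-1 with ASLAN003 against 29.4 to 36.3 FPKM with DMSO, and 22.7 to 29.4 FPKM in MOLM-14 with ASLAN003 against 34.1 to 37.7 FPKM with DMSO. The part of these shifts in the changes of the members was not tested. Replicate 1 of MOLM-14 with ASLAN003 stood apart, at -36.2 on the second principal component, where its group's other libraries were at -14.6 and -9.37.

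In KG-1, most of the pathway was lower after ASLAN003. By limma across all 13353 genes, 20 members fell and 5 rose at an adjusted p under 0.05, so 25 of 36 (69.4%) were called, where 33.7% of all tested genes were (19.4% higher, 14.3% lower). The largest falls were those of ALDOC, an aldolase isoenzyme, and BNIP3, which recruits autophagosomes to mitochondria, and the largest rises those of HK3, a myeloid hexokinase, and SLC2A3, the high-affinity glucose carrier GLUT3. The median member had a log2 change of -0.604, against 0.05 for all tested genes. The ASLAN003 and DMSO libraries did not overlap for 29 members, 23 lower and 6 higher, where 24.5% and 31.4% of all tested genes separated that way. Scaling moved the split of all called genes, while the members' median stayed below 0: 57.5% of called genes were higher on the deposited scale, 42.7% after median centring, 46.1% after quantile normalization and 72.8% after rescaling without 187 genes (mitochondrially encoded, small or ribosomal RNA, and histone). The members' median was -0.726, -0.515 and -0.452 under these 3, against medians over all tested genes of -0.071, -0.048 and 0.184.

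In MOLM-14 fewer members moved. There 6 fell and 3 rose, so 9 of 36 (25.0%) were called, where 13.0% of all tested genes were (9.69% higher, 3.33% lower). The falling members were BNIP3, GAPDH, LDHA, PDK1, PFKFB4 and SLC16A1, and all 6 also fell in KG-1. The risers were HK1 and HK3, which rose in KG-1 as well, and SLC2A1, which fell in KG-1. The median member had a log2 change of -0.017, against 0.076 for all tested genes, and without the MOLM-14 library that stood apart 4 members fell and 2 rose. For 8 members the groups did not overlap, 5 lower and 3 higher, where 8.17% and 17.7% of all tested genes separated that way. Of all genes called, 74.5% were higher on the deposited scale, 44.1% after median centring (which gave 7 members lower and 2 higher), 57.0% after quantile normalization and 88.1% after rescaling. The members' median was -0.166, -0.055 and 0.116 under these 3, so its sign turned with rescaling, against medians over all tested genes of -0.074, -0.022 and 0.192.

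**Figure D1:**
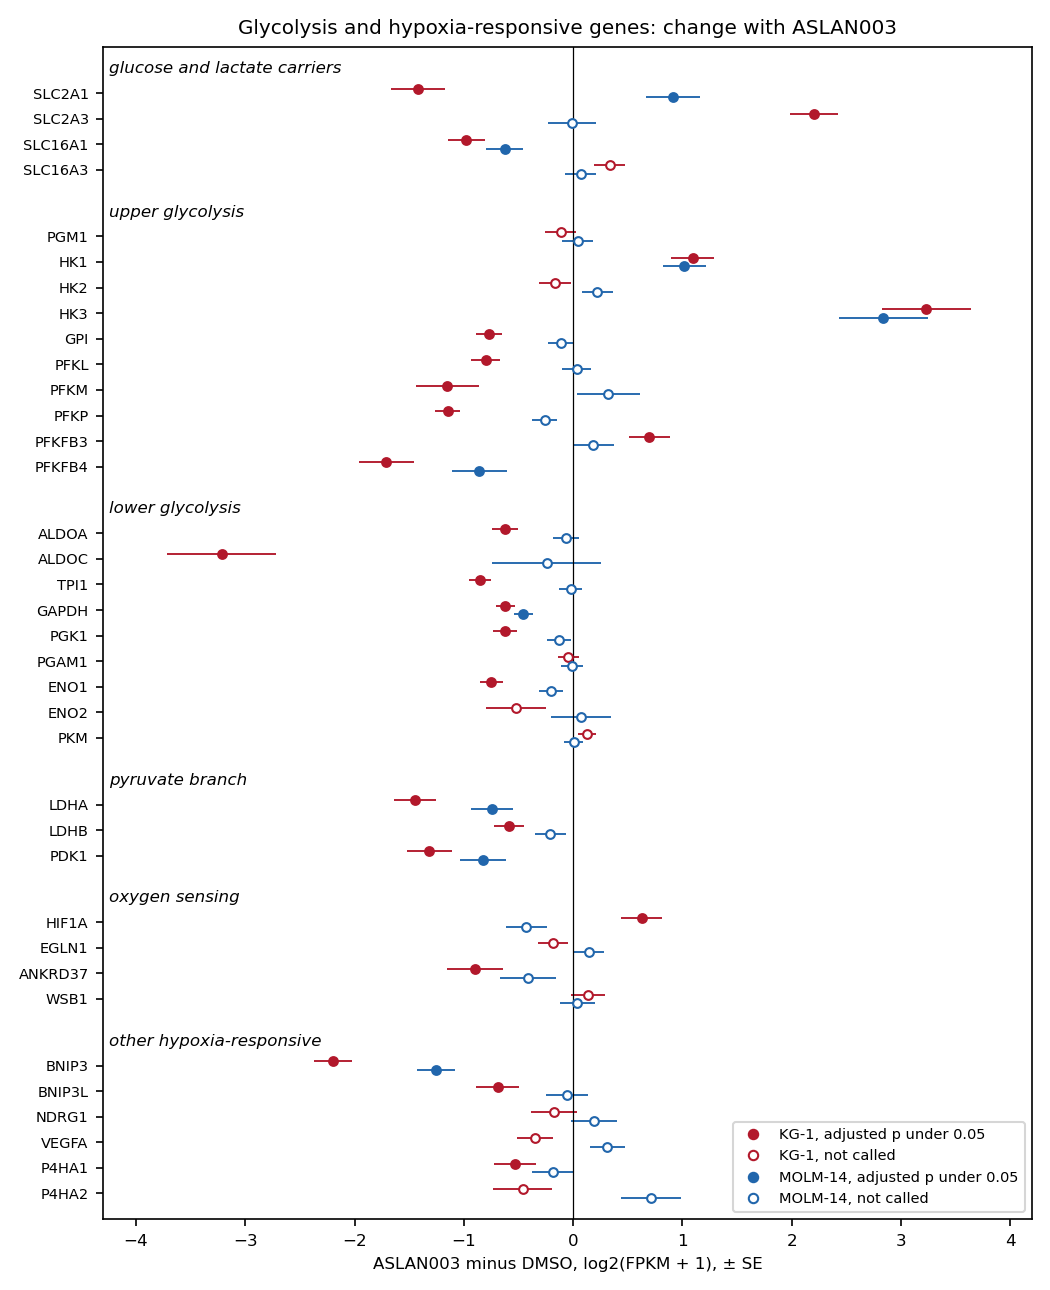
Log2 change of each member with ASLAN003 in KG-1 and in MOLM-14, with its standard error, in the order of the members' roles. Most KG-1 points lie left of 0, with HK3, SLC2A3, HK1, PFKFB3 and HIF1A to the right, and in MOLM-14 most lie near 0. ALDOA and ENO1 in KG-1 lie at 0.02 and 0.03 after quantile normalization.

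The summed level of all members was 9426 ± 715 FPKM in KG-1 with ASLAN003 and 14584 ± 812 FPKM with DMSO (SD, n = 3 each), or 1.38% and 1.901% of listed FPKM. In MOLM-14 it was 10475 ± 1035 FPKM with ASLAN003 and 12277 ± 157 FPKM with DMSO, or 1.355% and 1.462%. Much of this sum came from the 9 lower-glycolysis genes, at 7304 ± 532 FPKM in KG-1 with ASLAN003 and 10943 ± 616 FPKM with DMSO. Among them, GAPDH, ENO1 and ALDOA averaged 2599.8, 1422.7 and 1090.5 FPKM in KG-1 with ASLAN003. With DMSO they averaged 4003.4, 2390.2 and 1675.6 FPKM. The KG-1 falls of GAPDH, ENO1 and ALDOA were not called after quantile normalization, so the sums hold for the deposited scale. FPKM values are per length, so levels can be compared between genes. All changes below are on the scale of log2(FPKM + 1), which understates the change of genes near 1 FPKM, and each carries its standard error.

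The glucose carriers moved in opposite directions in KG-1. SLC2A1 (GLUT1), the widely expressed carrier, had 25.0, 16.2 and 31.8 FPKM in KG-1 with ASLAN003, against 71.7, 69.6 and 54.3 FPKM with DMSO. SLC2A3 (GLUT3) had 25.6, 20.2 and 34.5 FPKM with ASLAN003, against 4.99, 4.58 and 5.11 FPKM with DMSO. The libraries separated fully for both genes, SLC2A1 downward (-1.42 ± 0.25, adjusted p = 0.000744) and SLC2A3 upward (2.20 ± 0.22, adjusted p = 1.16e-05). SLC2A1 made up 47.3% ± 2.51 of the summed FPKM of the pair with ASLAN003 and 92.9% ± 1.31 with DMSO.

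MOLM-14 showed the reverse for SLC2A1 and no call for SLC2A3. There SLC2A1 had 99.7, 74.4 and 52.6 FPKM with ASLAN003, against 40.9, 42.3 and 32.7 FPKM with DMSO, and SLC2A3 had 47.8, 27.0 and 25.6 FPKM with ASLAN003, against 33.5, 31.9 and 31.7 FPKM with DMSO. Every treated library lay above the controls for SLC2A1 (0.91 ± 0.25, adjusted p = 0.0297), with the highest value in the library that stood apart, whereas the groups overlapped for SLC2A3 (-0.01 ± 0.22, adjusted p = 0.994). The changes differed between the lines for both genes, by -2.34 ± 0.35, adjusted p = 0.00184 for SLC2A1 and by 2.21 ± 0.31, adjusted p = 0.00138 for SLC2A3. The SLC2A1 rise in MOLM-14 rested on the full set of libraries: it was not called without replicate 1 or 2 of ASLAN003 or without any 1 of the 3 DMSO replicates (adjusted p between 0.0574 and 0.1), nor after median centring (0.0628) or quantile normalization (0.0522), with MOLM-14 fitted alone (0.0575) or with library weights (0.154).

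Of the carriers of lactate, SLC16A1 (MCT1), which works in both directions, fell in both lines, and SLC16A3 (MCT4), an exporter of glycolytic cells, was not called in either. SLC16A1 averaged 17.5 ± 0.834 FPKM in KG-1 with ASLAN003 and 35.3 ± 0.476 FPKM with DMSO (-0.98 ± 0.17, adjusted p = 0.0008). In MOLM-14 it averaged 18.9 ± 4.85 FPKM with ASLAN003 and 29.4 ± 5.35 FPKM with DMSO (-0.63 ± 0.17, adjusted p = 0.0305), a call lost without ASLAN003 replicate 1 (0.0726), DMSO replicate 2 (0.059) or DMSO replicate 3 (0.111). It was also lost after rescaling (0.0533), with MOLM-14 fitted alone (0.144) and with library weights (0.115). SLC16A3 held the larger share of the pair throughout, 87.4% ± 1.77 in KG-1 with ASLAN003 and 73.1% ± 2.06 with DMSO, and 84.1% ± 4.52 in MOLM-14 with ASLAN003 and 76.3% ± 6.15 with DMSO. Its own log2 change was 0.33 ± 0.14, adjusted p = 0.0883 in KG-1, called higher once the libraries were rescaled (adjusted p = 0.0184), with KG-1 fitted alone (0.0429), with library weights (0.0249) or with the replicate block (0.0332), and 0.07 ± 0.14, adjusted p = 0.801 in MOLM-14.

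Hexokinases, which trap glucose in the cell as glucose 6-phosphate, had 2 risers, HK1 and HK3, in both lines, and HK2 was called in neither. HK3 had 52.2, 40.2 and 74.3 FPKM in KG-1 with ASLAN003, against 4.69, 4.30 and 5.59 FPKM with DMSO. In MOLM-14 it had 19.5, 19.0 and 4.52 FPKM with ASLAN003, against 1.14, 0.78 and 0.62 FPKM with DMSO. Treated libraries lay above all controls in both lines, with the third MOLM-14 library the lowest of the treated ones. The log2 changes were 3.23 ± 0.41, adjusted p = 6.61e-05 in KG-1 and 2.84 ± 0.41, adjusted p = 0.00109 in MOLM-14, and their difference was 0.39 ± 0.58, adjusted p = 0.73.

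HK1, the housekeeping hexokinase bound to mitochondria, had 12.9, 9.83 and 9.36 FPKM in KG-1 with ASLAN003, against 4.73, 4.02 and 4.58 FPKM with DMSO. Its values in MOLM-14 were 32.4, 19.3 and 33.1 FPKM with ASLAN003, against 13.2, 14.1 and 12.1 FPKM with DMSO. No treated library reached down into the controls in either line, and the log2 changes were 1.09 ± 0.20, adjusted p = 0.000926 in KG-1 and 1.02 ± 0.20, adjusted p = 0.00551 in MOLM-14. HK2, the isoenzyme that HIF1A induces in many cells, had 25.4, 20.6 and 31.3 FPKM in KG-1 with ASLAN003, against 30.0, 27.2 and 28.7 FPKM with DMSO, and 18.6, 21.0 and 22.4 FPKM in MOLM-14 with ASLAN003, against 19.4, 17.0 and 16.4 FPKM with DMSO. Its groups overlapped in both lines (-0.17 ± 0.15, adjusted p = 0.417 in KG-1 and 0.22 ± 0.15, adjusted p = 0.354 in MOLM-14). Calls of HK1 and HK3 in both lines held under every alternative run, including each left-out library.

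The hexokinase pool changed in make-up. HK3 was 59.8% ± 4.25 of the summed FPKM of the 3 isoenzymes in KG-1 with ASLAN003 and 12.8% ± 1.39 with DMSO, while HK2 was 28.1% ± 0.984 with ASLAN003 and 75.5% ± 1.48 with DMSO. In MOLM-14, HK3 was 22.4% ± 13.1 with ASLAN003 and 2.65% ± 0.649 with DMSO, and HK2 33.0% ± 5.82 with ASLAN003 and 55.7% ± 2.15 with DMSO. The summed hexokinase level was 92.0 ± 22.2 FPKM in KG-1 with ASLAN003 and 37.9 ± 2.09 FPKM with DMSO, and 63.3 ± 6.32 FPKM in MOLM-14 with ASLAN003 and 31.5 ± 2.34 FPKM with DMSO (SD, n = 3 each).

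**Figure D2:**
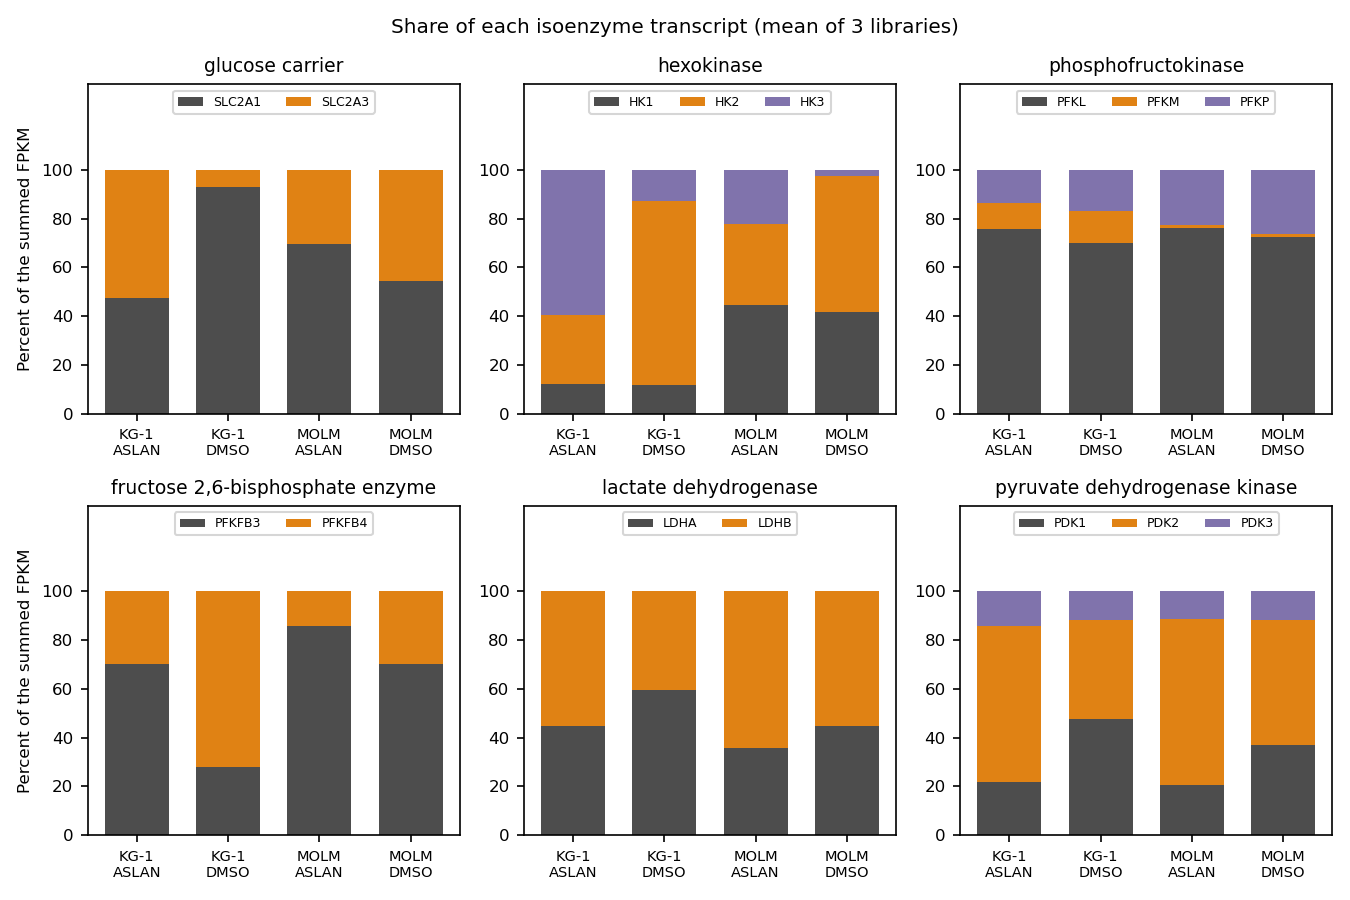
Share of each isoenzyme in the summed FPKM of its family, in percent, for the 4 groups, as stacked bars of the mean of 3 libraries. HK3 stands at 59.8% in KG-1 with ASLAN003 against 12.8% with DMSO, and SLC2A1 at 47.3% against 92.9%.

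The next steps, GPI and the phosphofructokinases, fell in KG-1 and were not called in MOLM-14. Phosphofructokinase commits glucose carbon to glycolysis, and its subunits are PFKL, PFKM and PFKP. PFKP had 10.9, 9.98 and 11.9 FPKM in KG-1 with ASLAN003, against 26.1, 26.2 and 23.8 FPKM with DMSO, and 35.5, 38.8 and 35.7 FPKM in MOLM-14 with ASLAN003, against 47.8, 46.3 and 38.7 FPKM with DMSO. The KG-1 groups lay far apart (-1.15 ± 0.12, adjusted p = 1.16e-05), and the MOLM-14 groups overlapped by a narrow margin (-0.26 ± 0.12, adjusted p = 0.161, called lower after median centring with adjusted p = 0.0437). PFKM, the muscle subunit, had 8.68, 8.44 and 7.81 FPKM in KG-1 with ASLAN003, against 20.5, 22.4 and 16.6 FPKM with DMSO, and 1.10, 2.64 and 2.53 FPKM in MOLM-14 with ASLAN003, against 2.45, 0.52 and 1.63 FPKM with DMSO. It fell in KG-1 (-1.15 ± 0.29, adjusted p = 0.00797; 0.0547 with a pseudocount of 0.1) and was near the detection filter in MOLM-14 (0.32 ± 0.29, adjusted p = 0.511).

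PFKL, the liver subunit, supplied most of the phosphofructokinase FPKM, 75.6% ± 2.95 in KG-1 with ASLAN003 and 70.0% ± 0.789 with DMSO. It averaged 60.7 ± 12.1 FPKM in KG-1 with ASLAN003 and 105 ± 7.62 FPKM with DMSO (-0.80 ± 0.13, adjusted p = 0.0006), with a value of 0.03 ± 0.13, adjusted p = 0.915 in MOLM-14. GPI, which turns glucose 6-phosphate into fructose 6-phosphate, averaged 202 ± 35.5 FPKM in KG-1 with ASLAN003 and 341 ± 20.6 FPKM with DMSO (-0.77 ± 0.12, adjusted p = 0.000294), with -0.11 ± 0.12, adjusted p = 0.601 in MOLM-14. PGM1, which links glucose 6-phosphate to glycogen, was not called in either line (-0.11 ± 0.14, adjusted p = 0.579 in KG-1 and 0.04 ± 0.14, adjusted p = 0.89 in MOLM-14).

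The changes of GPI, PFKL, PFKM and PFKP differed between the lines, by -0.66 ± 0.17, adjusted p = 0.0264 for GPI, -0.83 ± 0.19, adjusted p = 0.0165 for PFKL, -1.47 ± 0.41, adjusted p = 0.0378 for PFKM and -0.89 ± 0.16, adjusted p = 0.00564 for PFKP. The PFKP difference held without each library. That of PFKL was lost without replicate 1 of KG-1 with ASLAN003 (0.0508), and that of PFKM without each library other than replicate 1 of MOLM-14 with ASLAN003 or with DMSO (0.0549 to 0.0977). With a pseudocount of 0.1 (0.108) or the replicate block (0.0825) the PFKM difference was not called either. For GPI it was lost with no trend in the fit (0.0544) and without replicate 1 or 2 of KG-1 with ASLAN003, replicate 1 or 3 of KG-1 with DMSO, replicate 2 of MOLM-14 with ASLAN003 or replicate 3 of MOLM-14 with DMSO (0.0527 to 0.0756).

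PFKFB3 and PFKFB4 set the level of fructose 2,6-bisphosphate, the activator of phosphofructokinase, and they moved apart in KG-1. PFKFB3, the form with mostly kinase activity, had 17.0, 13.9 and 11.3 FPKM in KG-1 with ASLAN003, against 8.04, 7.93 and 8.56 FPKM with DMSO. PFKFB4 had 5.16, 5.94 and 6.41 FPKM in KG-1 with ASLAN003, against 22.7, 20.7 and 20.5 FPKM with DMSO. Both separated the groups, PFKFB3 upward (0.70 ± 0.19, adjusted p = 0.0128; 0.0654 without replicate 1 of ASLAN003) and PFKFB4 downward (-1.71 ± 0.25, adjusted p = 0.000224). PFKFB3 made up 70.2% ± 6.45 of their summed FPKM with ASLAN003 and 27.8% ± 1.64 with DMSO.

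In MOLM-14, PFKFB3 had 14.1, 16.5 and 10.3 FPKM with ASLAN003, against 13.8, 9.84 and 11.6 FPKM with DMSO, and PFKFB4 had 3.57, 2.34 and 1.21 FPKM with ASLAN003, against 5.56, 6.12 and 3.29 FPKM with DMSO. The groups overlapped for both genes. PFKFB3 was not called (0.19 ± 0.19, adjusted p = 0.577), and PFKFB4 was called lower (-0.86 ± 0.25, adjusted p = 0.0426), a call that only 2 of the 12 left-out libraries preserved. Those were replicate 1 of MOLM-14 with ASLAN003 and replicate 3 of MOLM-14 with DMSO, and without any 1 of the other 10 libraries the adjusted p lay between 0.0544 and 0.145. It was 0.0616 after rescaling and 0.196 with MOLM-14 fitted alone.

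Lower glycolysis, from aldolase to pyruvate kinase, holds the most abundant of the members, and in KG-1 6 of its 9 genes fell and 0 rose. GAPDH, the dehydrogenase that yields NADH, was the highest, at 2599.8 ± 73.3 FPKM in KG-1 with ASLAN003 and 4003 ± 215 FPKM with DMSO (-0.62 ± 0.09, adjusted p = 0.000146). TPI1, which interconverts the triose phosphates, averaged 397 ± 48.0 FPKM with ASLAN003 and 713 ± 24.3 FPKM with DMSO (-0.85 ± 0.10, adjusted p = 4.22e-05). PGK1, the first step that yields ATP, averaged 584 ± 65.1 FPKM with ASLAN003 and 899 ± 24.6 FPKM with DMSO (-0.63 ± 0.11, adjusted p = 0.000873). The main aldolase ALDOA (-0.62 ± 0.12, adjusted p = 0.00129) and the main enolase ENO1 (-0.75 ± 0.11, adjusted p = 0.000187) also fell. Quantile normalization, which forces all libraries onto 1 distribution, set ALDOA at 0.02, ENO1 at 0.03 and GAPDH at -0.0014 in KG-1, none of them called, so the falls of these 3 hold for the deposited scale and not for that one.

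ALDOC, the aldolase of brain that is low in most blood cells, had 4.82, 5.30 and 30.1 FPKM in KG-1 with ASLAN003, against 111, 78.2 and 102 FPKM with DMSO, and 19.5, 22.6 and 16.5 FPKM in MOLM-14 with ASLAN003, against 22.3, 24.9 and 22.1 FPKM with DMSO. All treated KG-1 libraries were below the controls, the third far less so than the others, and the MOLM-14 groups overlapped. The log2 changes were -3.21 ± 0.50, adjusted p = 0.00055 in KG-1 and -0.24 ± 0.50, adjusted p = 0.807 in MOLM-14, and differed by -2.97 ± 0.71, adjusted p = 0.0239. That difference was lost without replicate 2 of KG-1 with ASLAN003 (0.05), replicate 1 of KG-1 with DMSO (0.056), replicate 2 of MOLM-14 with ASLAN003 (0.0599) or replicate 3 of MOLM-14 with DMSO (0.0505).

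PKM, pyruvate kinase, had 546, 569.9 and 616 FPKM in KG-1 with ASLAN003, against 563, 509 and 512 FPKM with DMSO, and 706, 693 and 608 FPKM in MOLM-14 with ASLAN003, against 674, 665 and 656 FPKM with DMSO. Its groups overlapped in both lines (0.13 ± 0.08, adjusted p = 0.267 in KG-1, called higher with adjusted p = 0.0158 after rescaling, and 0.01 ± 0.08, adjusted p = 0.986 in MOLM-14). Neither PGAM1, which moves the phosphate of phosphoglycerate, nor the minor enolase ENO2 was called in KG-1 (-0.04 ± 0.10, adjusted p = 0.781 for PGAM1 and -0.52 ± 0.27, adjusted p = 0.168 for ENO2), though ENO2 was called lower with KG-1 fitted alone (0.0228) or with library weights (0.00661). In MOLM-14, GAPDH fell, at 3007 ± 338 FPKM with ASLAN003 and 4111 ± 112 FPKM with DMSO (-0.46 ± 0.09, adjusted p = 0.00521), though quantile normalization left -0.06 and no call (adjusted p = 0.556), nor was it called with MOLM-14 fitted alone (0.053). The other 8 genes were not called there, with log2 changes between -0.24 (ALDOC) and 0.07 (ENO2).

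The lines differed in the changes of TPI1 (-0.82 ± 0.14, adjusted p = 0.00406) and ENO1 (-0.55 ± 0.15, adjusted p = 0.04) as well. The TPI1 difference held without each library. The ENO1 difference was lost without each library except replicate 3 of KG-1 with ASLAN003 and replicate 1 of MOLM-14 with ASLAN003 (0.0584 to 0.109), and was -0.04 after quantile normalization (adjusted p = 0.824). Median centring (0.0781) and a fit with no trend (0.0841) also ended it.

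At the pyruvate branch, LDHA, the lactate dehydrogenase subunit that favours lactate, and PDK1, the kinase that shuts pyruvate out of the mitochondrial pyruvate dehydrogenase, fell in both lines. LDHA had 485, 487 and 628 FPKM in KG-1 with ASLAN003, against 1624, 1353 and 1368 FPKM with DMSO. In MOLM-14 LDHA had 313, 566 and 561 FPKM with ASLAN003, against 801, 742 and 792 FPKM with DMSO. All treated values were below all controls in both lines, with the lowest MOLM-14 value in the library that stood apart. The log2 changes were -1.44 ± 0.19, adjusted p = 0.000102 in KG-1 and -0.75 ± 0.19, adjusted p = 0.0236 in MOLM-14. Leaving out that library made the MOLM-14 change -0.46 (adjusted p = 0.0238), and leaving out any 1 of the DMSO replicates ended the call (0.0561 to 0.0703), as did fitting MOLM-14 alone (0.0867).

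PDK1 had 4.84, 4.86 and 7.98 FPKM in KG-1 with ASLAN003, against 15.6, 15.3 and 16.5 FPKM with DMSO, and 2.91, 3.82 and 4.55 FPKM in MOLM-14 with ASLAN003, against 6.63, 6.31 and 9.42 FPKM with DMSO. Neither line's groups overlapped (-1.32 ± 0.21, adjusted p = 0.000377 in KG-1 and -0.82 ± 0.21, adjusted p = 0.0216 in MOLM-14). The MOLM-14 call was lost without replicate 1 of ASLAN003 (0.0612) or replicate 3 of DMSO (0.0817), with that line fitted alone (0.0967) and with library weights (0.0975). LDHB, the subunit that favours pyruvate, averaged 654 ± 15.3 FPKM in KG-1 with ASLAN003 and 982 ± 13.1 FPKM with DMSO (-0.59 ± 0.14, adjusted p = 0.0063), and was not called in MOLM-14 (-0.21 ± 0.14, adjusted p = 0.373).

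LDHA made up 44.8% ± 4.23 of lactate dehydrogenase FPKM in KG-1 with ASLAN003 and 59.5% ± 2.42 with DMSO, and 35.8% ± 1.94 in MOLM-14 with ASLAN003 and 44.7% ± 1.81 with DMSO. PDK1 likewise made up 21.7% ± 5.92 of the summed FPKM of PDK1, PDK2 and PDK3 in KG-1 with ASLAN003 and 47.6% ± 1.99 with DMSO. In MOLM-14 its share was 20.7% ± 4.90 with ASLAN003 and 36.8% ± 6.16 with DMSO. The difference between the lines was not called for LDHA (-0.70 ± 0.27, adjusted p = 0.128), PDK1 (-0.49 ± 0.29, adjusted p = 0.338) or LDHB (-0.38 ± 0.20, adjusted p = 0.267). Without replicate 1 of MOLM-14 with ASLAN003 it was called for LDHA (adjusted p = 0.0016) and LDHB (adjusted p = 0.00139), as it was with library weights (0.00577 for LDHA and 0.0183 for LDHB).

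**Figure D3:**
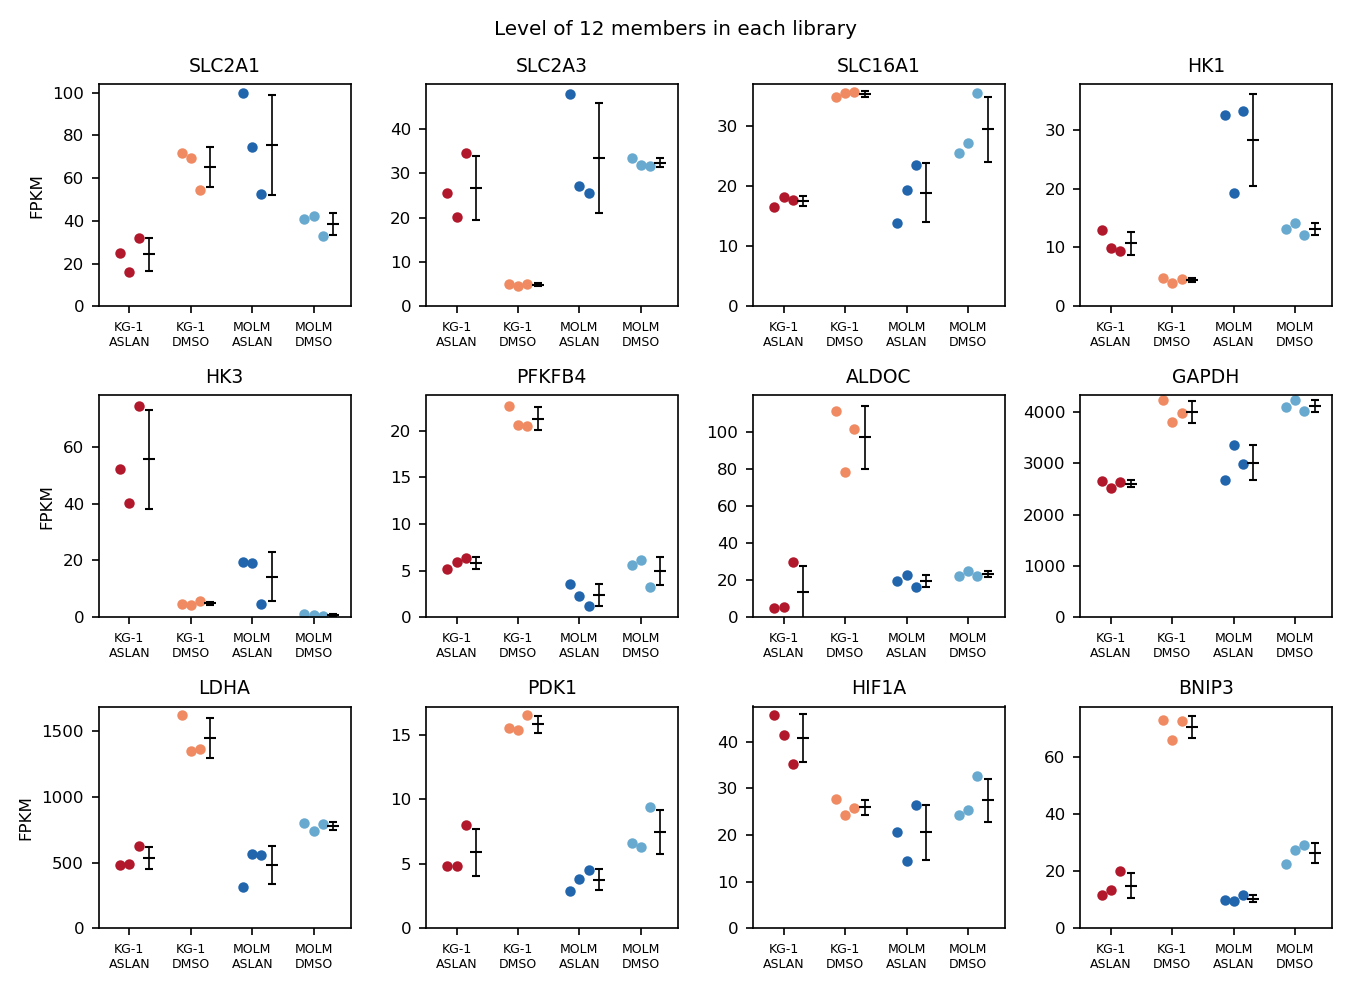
FPKM of selected members in each of the 12 libraries, with the 4 groups side by side and ASLAN003 left of DMSO in each line. LDHA, PDK1 and BNIP3 lie lower with ASLAN003 in both lines, HK1 and HK3 higher in both, and SLC2A1 lower in KG-1 but higher in MOLM-14.

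The messenger of the oxygen-regulated factor itself was called higher in KG-1 and was not called in MOLM-14. HIF1A had 45.6, 41.4 and 35.3 FPKM in KG-1 with ASLAN003, against 27.6, 24.3 and 25.8 FPKM with DMSO, and 20.7, 14.5 and 26.4 FPKM in MOLM-14 with ASLAN003, against 24.2, 25.4 and 32.7 FPKM with DMSO. In KG-1 every treated library was above the controls (0.63 ± 0.19, adjusted p = 0.0219), and in MOLM-14 the groups overlapped (-0.43 ± 0.19, adjusted p = 0.16). The changes differed by 1.05 ± 0.27, adjusted p = 0.0272. In KG-1 the rise was lost without replicate 1 or 2 of ASLAN003 or replicate 2 or 3 of DMSO (0.0577 to 0.0873) and after median centring (0.0554). The difference was lost without replicate 1 or 2 of KG-1 with ASLAN003, any 1 of the KG-1 DMSO replicates or replicate 3 of MOLM-14 with DMSO (0.0535 to 0.0763). HIF1A protein, which oxygen controls, was not measured.

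Of the other genes of oxygen sensing, ANKRD37, an early HIF target, averaged 2.62 ± 1.25 FPKM in KG-1 with ASLAN003 and 5.49 ± 0.657 FPKM with DMSO (-0.90 ± 0.26, adjusted p = 0.0165). That fall was lost without replicate 1 or 2 of ASLAN003 or replicate 2 of DMSO (0.0519 to 0.0787), and MOLM-14 gave -0.41 ± 0.26, adjusted p = 0.322. EGLN1 (PHD2), the main hydroxylase that marks HIF1A, and WSB1, a ubiquitin ligase component that HIF1A induces, were called in neither line. EGLN1 had log2 changes of -0.18 ± 0.14, adjusted p = 0.337 in KG-1 and 0.15 ± 0.14, adjusted p = 0.538 in MOLM-14. WSB1 had 0.14 ± 0.16, adjusted p = 0.555 in KG-1 and 0.04 ± 0.16, adjusted p = 0.916 in MOLM-14.

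BNIP3 had the largest log2 fall of the hypoxia-responsive members in both lines. It had 11.5, 13.3 and 19.9 FPKM in KG-1 with ASLAN003, against 72.7, 65.8 and 72.4 FPKM with DMSO. In MOLM-14 it had 9.89, 9.53 and 11.8 FPKM with ASLAN003, against 22.4, 27.4 and 29.0 FPKM with DMSO. The groups lay apart in both lines, with log2 changes of -2.20 ± 0.17, adjusted p = 2.28e-06 in KG-1 and -1.25 ± 0.17, adjusted p = 0.000975 in MOLM-14, and both calls held under every alternative run. The 2 changes differed by -0.94 ± 0.25, adjusted p = 0.0312, a difference that was lost without replicate 1 or 2 of KG-1 with ASLAN003, any 1 of the KG-1 DMSO replicates, replicate 3 of MOLM-14 with ASLAN003, or replicate 1 or 2 of MOLM-14 with DMSO (0.0565 to 0.0811).

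VEGFA, the angiogenic growth factor and a standard HIF target, had 45.2, 37.7 and 47.0 FPKM in KG-1 with ASLAN003, against 52.0, 52.7 and 61.2 FPKM with DMSO, and 103, 62.2 and 75.3 FPKM in MOLM-14 with ASLAN003, against 70.5, 59.3 and 59.6 FPKM with DMSO. Treated KG-1 libraries all lay below the controls without a call (-0.35 ± 0.16, adjusted p = 0.121; called with adjusted p = 0.0359 after median centring, 0.0258 with KG-1 fitted alone, 0.0126 with library weights and 0.0491 with the replicate block), and the MOLM-14 groups overlapped (0.31 ± 0.16, adjusted p = 0.235). BNIP3L (NIX), a relative of BNIP3, averaged 20.2 ± 4.17 FPKM in KG-1 with ASLAN003 and 32.8 ± 1.51 FPKM with DMSO (-0.69 ± 0.20, adjusted p = 0.0161), a call lost without replicate 1 or 2 of ASLAN003 or replicate 1 of DMSO (0.0581 to 0.0688). P4HA1, a collagen prolyl hydroxylase subunit, lay at the threshold in KG-1 (-0.53 ± 0.19, adjusted p = 0.0495) and lost its call without any 1 of 8 libraries (0.0508 to 0.185) and under 4 other settings (0.0539 to 0.109). Those were replicates 1 and 2 of KG-1 with ASLAN003, all 3 of KG-1 with DMSO, replicate 3 of MOLM-14 with ASLAN003 and replicates 1 and 2 of MOLM-14 with DMSO.

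NDRG1, a stress-induced gene that HIF1A raises in many cells, was not called (-0.17 ± 0.21, adjusted p = 0.569 in KG-1 and 0.19 ± 0.21, adjusted p = 0.61 in MOLM-14). P4HA2, the other collagen hydroxylase subunit, was not called either (-0.46 ± 0.27, adjusted p = 0.218 in KG-1 and 0.72 ± 0.27, adjusted p = 0.107 in MOLM-14). It was near the floor in MOLM-14, with 1.39, 0.98 and 0.20 FPKM with ASLAN003, against 0, 0.28 and 0 FPKM with DMSO, and a pseudocount of 0.1 made it called higher there (2.33, adjusted p = 0.0381). In MOLM-14 neither BNIP3L (-0.06 ± 0.20, adjusted p = 0.9) nor P4HA1 (-0.19 ± 0.19, adjusted p = 0.579) was called.

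**Figure D4:**
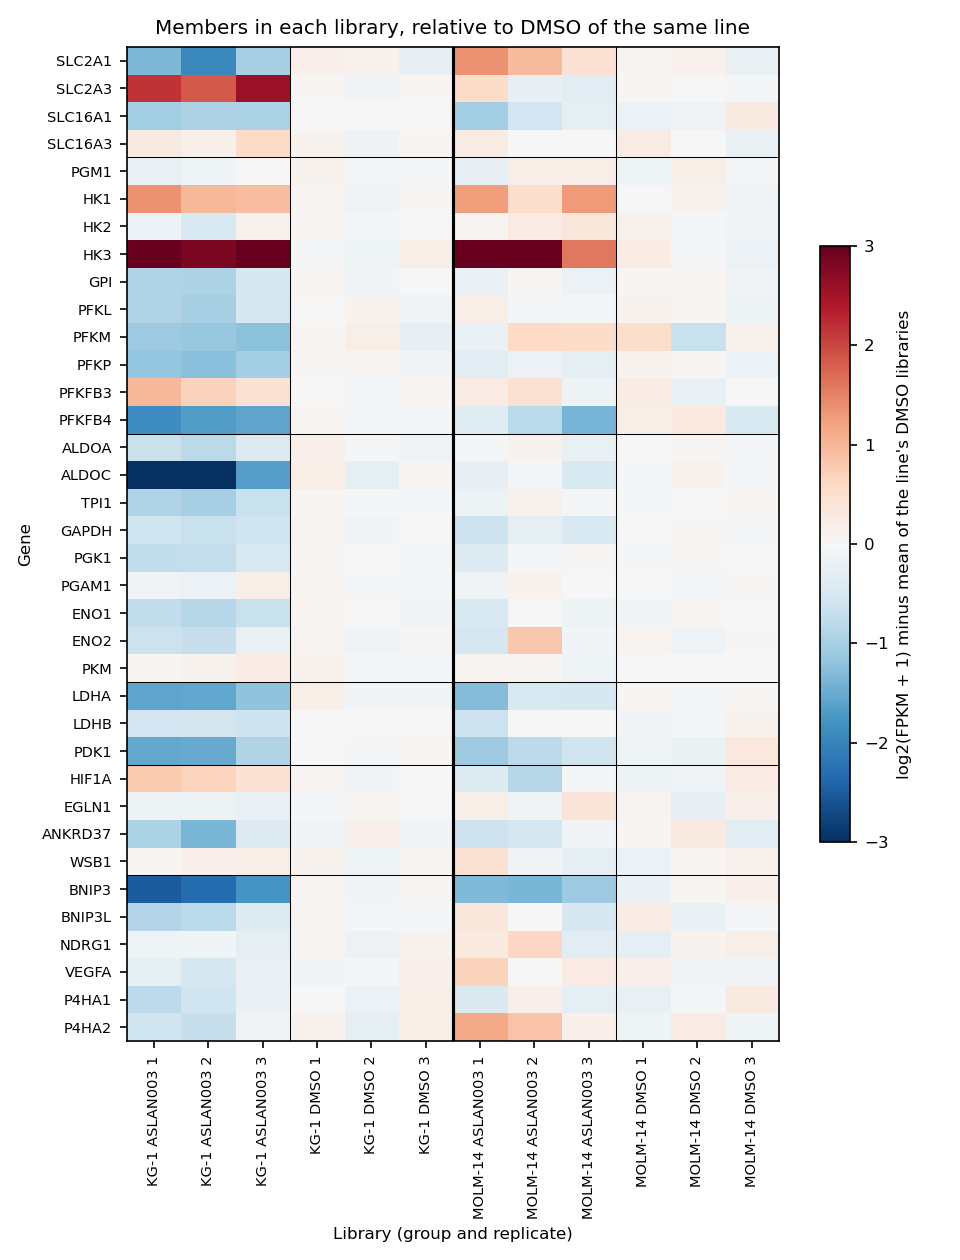
Each member (rows, ordered by role) in each library (columns), as log2(FPKM + 1) minus the mean of the DMSO libraries of the same line, with the scale clipped at -3 and 3. Blue fills most KG-1 ASLAN003 rows from GPI to P4HA1, HK1 and HK3 are red with ASLAN003 in both lines, and replicate 1 of MOLM-14 with ASLAN003 is bluer at LDHA, LDHB and SLC16A1 than its group's other libraries. After quantile normalization ALDOA and ENO1 in KG-1 lie at 0.02 and 0.03.

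Set against each other, the treatment changes differed between the lines for 11 of the 36 members (30.6%), 9 lower and 2 higher in KG-1, where 9.94% of all tested genes differed (5.05% higher, 4.89% lower). The 9 were SLC2A1, GPI, PFKL, PFKM, PFKP, ALDOC, TPI1, ENO1 and BNIP3, and the 2 were SLC2A3 and HIF1A. The median difference was -0.486 over the members and -0.028 over all tested genes. Without replicate 1 of MOLM-14 with ASLAN003, 13 members were lower and 2 higher, with 17.7% of all genes called. The other 25 members were not shown to respond differently, among them ALDOA (-0.56 ± 0.17, adjusted p = 0.0518) and PGK1 (-0.49 ± 0.16, adjusted p = 0.0672), which were close to the threshold. Only SLC2A1, SLC2A3, PFKP and TPI1 differed without each of the 12 libraries in turn.

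The lines also stood at different levels without the drug, in the DMSO libraries of 96 h. With DMSO, 18 members were higher and 4 lower in KG-1 than in MOLM-14, so 22 of 36 (61.1%) were called, where 49.2% of all tested genes were (27.1% higher, 22.1% lower). The DMSO libraries of the 2 lines did not overlap for 26 members, 21 higher and 5 lower, where 34.3% and 29.0% of all tested genes separated that way. PFKM (3.11 ± 0.29, adjusted p = 1.88e-06) and PGM1 (2.47 ± 0.14, adjusted p = 2.42e-08) had the largest upward log2 differences on this scale, and SLC2A3 (-2.50 ± 0.22, adjusted p = 1.32e-06) and HK1 (-1.37 ± 0.20, adjusted p = 8.26e-05) the largest downward ones. With a pseudocount of 0.1, P4HA2, near 0 in MOLM-14 with DMSO, stood highest (4.48, against 3.82 for PFKM). Also higher in KG-1 were HK2 (0.68), HK3 (1.67), PFKFB4 (1.93), ALDOC (2.01), PGK1 (1.02), LDHA (0.89), PDK1 (1.01), BNIP3 (1.39), P4HA1 (1.23) and P4HA2 (2.02). ENO1, ENO2, PGAM1, SLC2A1, EGLN1 and WSB1 were higher by 0.35 to 1.02, and PFKP (-0.77) and PKM (-0.33) were lower. These levels share their DMSO libraries with the treatment changes, so the pair is given side by side and no relation between them was computed. The call of SLC2A1 was lost without any 1 of 3 libraries (0.0758 to 0.0888), of WSB1 without any 1 of 3 (0.0541 to 0.0773) and of EGLN1 without any 1 of 8 (0.0566 to 0.203). EGLN1 was also lost after median centring (0.0886), after quantile normalization (0.0778) and with no trend in the fit (0.0627), and PKM after rescaling (0.0711). GAPDH, not called (-0.04 ± 0.09, adjusted p = 0.735), was 0.28 higher and called after quantile normalization (adjusted p = 0.00147).

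Genes next to the members on the pathway are given by lists of their own. Their counts stand beside shares over all tested genes of 19.4% higher and 14.3% lower in KG-1 (median 0.05) and 9.69% higher and 3.33% lower in MOLM-14 (median 0.076), and no list was tested as a set. Of 28 other glycolytic and isoenzyme genes 17 were tested, and in KG-1 4 rose and 1 fell, with a median log2 change of 0.266. SLC2A6, a lysosomal hexose carrier, averaged 5.26 ± 0.900 FPKM in KG-1 with ASLAN003 and 0.970 ± 0.0557 FPKM with DMSO (1.66, adjusted p = 2.31e-05). G6PC3, a glucose 6-phosphatase, averaged 26.7 ± 6.50 FPKM with ASLAN003 and 61.7 ± 3.01 FPKM with DMSO (-1.20, adjusted p = 9.71e-05). In MOLM-14 1 rose and 1 fell (median 0.21): FBP1, which runs the phosphofructokinase step backward (1.27, adjusted p = 0.00279; 0.0587 with MOLM-14 fitted alone), and SLC2A5, the fructose carrier (-1.05, adjusted p = 0.0018). A list of 14 genes around mitochondrial pyruvate held its carriers, pyruvate dehydrogenase and its regulators, and also PC and PCK2. Of these 13 were tested, and 3 fell and 0 rose in KG-1 (median 0.007). The fallers were DLAT (-0.73, adjusted p = 0.00146) and PDHA1 (-0.51, adjusted p = 0.00146), both of pyruvate dehydrogenase, and PCK2 (-1.35, adjusted p = 0.000156), which is not a gene of pyruvate entry. In MOLM-14 0 were called (median 0.044).

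The pentose phosphate pathway, which takes glucose 6-phosphate to NADPH and ribose, was tested for 9 of 9 genes. In KG-1 3 rose and 1 fell (median 0.231). PGD, a dehydrogenase that yields NADPH (0.88, adjusted p = 3.47e-05), and the transketolase TKT (0.71, adjusted p = 0.000461) were among the risers. In MOLM-14 4 rose and 0 fell (median 0.358). Glycogen genes, 10 of 10 tested, had 5 higher and 2 lower in KG-1 (median 0.339) and 4 higher and 0 lower in MOLM-14 (median 0.147). In KG-1 the synthase GYS1 (-0.95, adjusted p = 0.000843) and the branching enzyme GBE1 (-0.85, adjusted p = 0.000261) fell, and in MOLM-14 the liver-type phosphorylase PYGL rose (0.63, adjusted p = 0.000884).

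Regulators of the HIF pathway had 12 of 16 listed symbols tested, where ELOB and TCEB2 name the same gene, as do ELOC and TCEB1. In KG-1 5 were higher and 0 lower (median 0.291), and in MOLM-14 3 were higher and 0 lower (median 0.054). EPAS1 (HIF2A), the relative of HIF1A, rose in both lines, averaging 10.6 ± 3.73 FPKM in KG-1 with ASLAN003 and 3.79 ± 0.614 FPKM with DMSO (1.23, adjusted p = 0.000875). Its MOLM-14 means were 17.4 ± 1.42 FPKM with ASLAN003 and 5.89 ± 1.00 FPKM with DMSO (1.42, adjusted p = 0.00158). The coactivators CREBBP (0.83, adjusted p = 0.00528) and EP300 (0.76, adjusted p = 0.00175) rose in KG-1. A wider list of hypoxia-responsive genes outside the 36 had 25 of 35 listed symbols tested, with ERO1A and ERO1L naming the same gene. Of those tested, 10 were lower and 5 higher in KG-1 (median -0.086), and 6 lower and 4 higher in MOLM-14 (median -0.032).

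Within that wider list, DDIT4 (REDD1), an inhibitor of mTORC1 signalling, averaged 48.9 ± 11.1 FPKM in KG-1 with ASLAN003 and 200.0 ± 22.6 FPKM with DMSO (-2.03, adjusted p = 1.56e-06), and 127 ± 19.0 FPKM in MOLM-14 with ASLAN003 and 255 ± 13.0 FPKM with DMSO (-1.01, adjusted p = 0.00149). STC2, a secreted stress protein, fell in both (-2.12, adjusted p = 4.16e-05 in KG-1 and -1.41, adjusted p = 0.00388 in MOLM-14), and FAM162A, a mitochondrial protein, fell in KG-1 (-1.67, adjusted p = 8.31e-06). CXCR4, the chemokine receptor that holds leukaemia cells in marrow, rose in both (0.99, adjusted p = 2.08e-05 in KG-1 and 1.20, adjusted p = 5.68e-05 in MOLM-14). TXNIP, an inhibitor of glucose uptake that MondoA induces, rose in KG-1 (1.27, adjusted p = 0.00108) and in MOLM-14 (1.31, adjusted p = 0.00374). Of 6 MYC and MondoA genes, which include TXNIP, 2 rose and 1 fell in KG-1 (median 0.304) and 1 rose and 0 fell in MOLM-14 (median 0.328). MYC averaged 59.7 ± 12.5 FPKM in KG-1 with ASLAN003 and 148 ± 17.7 FPKM with DMSO (-1.31, adjusted p = 0.000965). Its part in the changes of the members was not tested.

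Several members share sequence or ground with other genes. GENCODE 29 names pseudogenes for 15 of the 36, 146 in all, of which 62 belong to GAPDH and 39 to BNIP3, and 7 of them are in the table. Reads could be divided between a gene and such copies, and the GAPDH copies in the table reached 4.35 FPKM at most and the LDHA copies 32.9 FPKM. The SLC2A3 copy in the table reached 11.1 FPKM in its highest library. SLC2A3 itself had 4.58 to 5.11 FPKM in KG-1 with DMSO and 20.2 to 34.5 FPKM with ASLAN003. The part of this copy in the change of SLC2A3 was not tested. GAPDH is overlapped on the opposite strand by RP5-940J5.9, listed at 38.1 to 101 FPKM, and VEGFA by RP1-261G23.7, listed at 0 to 72.6 FPKM. Other members have opposite-strand neighbours too. SENP1 overlaps PFKM at 7.06 to 14.0 FPKM, where PFKM itself reached at most 2.64 FPKM in MOLM-14. UFSP2 overlaps ANKRD37 (6.21 to 13.5 FPKM) and ITGB3BP overlaps PGM1 (9.08 to 22.9 FPKM). CSNK1D overlaps SLC16A3 (54.1 to 89.6 FPKM) and SLC22A4 overlaps P4HA2 (2.26 to 15.1 FPKM). The library kit kept strand, but the sources used here do not say whether the counting used it. For all members with an opposite-strand neighbour, reads of both strands cannot be told apart. On the same strand, RP11-192H23.4 overlaps ALDOC (0.77 to 5.59 FPKM), LRRC23 overlaps ENO2 (1.09 to 3.59 FPKM) and RP13-516M14.10 overlaps SLC16A3 (0 to 2.54 FPKM). Strand does not separate such reads. ALDOC itself had 4.82 and 5.30 FPKM in replicates 1 and 2 of KG-1 with ASLAN003. The part of these neighbours in the changes was not tested.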

How the data were processed

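Total RNA was sequenced in 12 libraries after a strand-preserving library preparation, per the labels' protocols. The submitters' processing notes name bcl2fastq 2.17.1.14, STAR 2.4.2a, RSEM 1.2.25 and the hg38/GRCh38 build, with no settings. The authors deposited 1 table of log2(FPKM + 1) values, FPKM being normalized to gene length and library depth. The pseudocount of 1 was read from the values, and FPKM was recovered from it.

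Genes that reached 1 FPKM in 3 or more libraries (13353 of 13881) were fitted together over all 12 libraries in limma 3.58.1 (R 4.3.3), with 4 group means, a trend and robust estimation, and Benjamini-Hochberg adjustment over all genes tested. Adjusted p under 0.05 is a call, and a fold near 1 FPKM is understated on this scale. The fit was tested on simulated data. Levels are means ± SD of FPKM (n = 3), and changes are given ± SE, except those of genes outside the members, given without SE. Other settings were a pseudocount of 0.1, no filter, a filter of 5 FPKM, 3 other scalings, each line alone, library weights, no trend, a replicate block and each library left out.

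The members and lists were chosen with earlier results of these data known. Values in every library are given for members called with a log2 change of at least 1 in either direction with ASLAN003 and for HIF1A, VEGFA, SLC2A1, HK2, PFKFB3, LDHA and PKM. Of the other lists at most 3 called genes per direction are named. Some genes of these lists that the rule would name are not reported here. Promoter letters are from RefSeq, gene positions and pseudogenes from GENCODE 29. Depth was estimated from the steps between low FPKM values, of which 75.8 to 91.5% per library lay within 0.15 of a whole fragment, and counts were not available, so no count model was used.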

Additional observations from a re-analysis of the deposited data

Results flagged for a closer look

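The treatment change differed between KG-1 and MOLM-14 for 11 members, by the test of the difference itself (limma, adjusted p under 0.05). In each case the value is the log2 change in KG-1 minus that in MOLM-14, and no cause was tested. The glucose carriers had the opposite signs -2.34 for SLC2A1 and 2.21 for SLC2A3. In upper glycolysis the values were -0.66 for GPI, -0.83 for PFKL, -1.47 for PFKM and -0.89 for PFKP. In lower glycolysis they were -2.97 for ALDOC, -0.82 for TPI1 and -0.55 for ENO1, the last being -0.04 and not called after quantile normalization. HIF1A had 1.05 and BNIP3 -0.94. Of the 11, 4 differed without each of the 12 libraries in turn: SLC2A1, SLC2A3, PFKP and TPI1.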

How the results depend on the processing

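With each library left out in turn, KG-1 had 3 to 5 members higher and 17 to 21 lower, MOLM-14 2 to 4 higher and 3 to 6 lower, and the difference between the lines 1 to 2 higher and 4 to 13 lower. In KG-1 the count of 3 came without replicate 1 of ASLAN003, in MOLM-14 the count of 3 without replicate 2 or 3 of DMSO, and the count of 13 without replicate 1 of MOLM-14 with ASLAN003. Over all genes, the calls ran from 3294 to 5255 in KG-1 (4494 with all libraries), from 1068 to 2314 in MOLM-14 (1738) and from 736 to 2361 for the difference (1327). Of the 25 calls in KG-1, 20 were kept without each library, as were 4 of 9 in MOLM-14, 4 of 11 for the difference and 19 of 22 between the lines in DMSO. With each line fitted alone, 1 member was lower in MOLM-14 and 501 genes were called there, with fewer libraries to estimate the spread. Quantile normalization turned the sign of ALDOA (0.0231) and ENO1 (0.0298) in KG-1, neither called, and of GAPDH between the lines in DMSO (0.28, adjusted p = 0.00147); the cause was not tested.

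Whether replicate numbers pair the libraries was not settled. Deviations of same-numbered treated and control libraries correlated at -0.00191 to 0.1, and 4 of 6 treated libraries correlated best with their own number. With the replicate block, 6 members were higher and 21 lower in KG-1, 3 higher and 6 lower in MOLM-14, 2 higher and 9 lower for the difference (PFKM lost with adjusted p = 0.0825, VEGFA gained with 0.0437), and 18 higher and 4 lower between the lines in DMSO. The block lies within a line, so between the lines it changed the estimate of the spread and not the differences.

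Members near 1 FPKM (PFKM and P4HA2 in MOLM-14) rest on few fragments, and 3 libraries per group limit every call. FPKM is relative to the other transcripts of a library, so absolute amounts are not known.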
